A study of Mus musculus with 8 samples.

Results

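Interferon-stimulated genes are described here in MAM326 cells, a line of mouse mammary cancer, after sorting by flow cytometry for GFP. The 36 members are a list of gene names and were found by name among the non-control spots of each array. They were carried by 48 probes on 57 spots, of 34821 gene names, 55681 probes and 59305 spots in all. Of the 36 genes, 30 had a probe that stood well above background on 4 or more of the 8 arrays and were tested, among 19702 features tested in all.

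The series held 8 one-colour Agilent arrays, 4 for the GFP-positive and 4 for the GFP-negative fraction, each made from 20 ng of total RNA. Both groups came from the same cell line in serum-containing medium, with no interferon or other agent named in the labels, and were sorted 2 days after seeding. The study's design text describes 4 independent experiments at different passages, but no label ties an array to an experiment, and p-values measure only the spread between arrays, which may be technical. The sources used here do not give what drives GFP, and all arrays represent 1 line. Levels are log2 signals relative to each array's 75th percentile, so 0 is that percentile, and they are compared between arrays for 1 probe and never between probes. Differences are GFP-positive minus GFP-negative on the log2 scale with the standard error of the fit, and "passed" means an adjusted p under 0.05 in limma, with Benjamini-Hochberg adjustment over all 19702 features.

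Type I interferons signal through the receptor chains Ifnar1 and Ifnar2 and the kinases Jak1 and Tyk2 to a complex that includes Stat2 and Irf9. That complex binds the interferon-stimulated response element (ISRE) in the promoters of target genes, whereas interferon gamma acts through gamma-activated sites (GAS) and through Irf1. Products of the target genes sense viral RNA, degrade it, block replication or, like Usp18, restrain the receptor. In tumour cells the same genes can also be active without added interferon.

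The response element is shown first, because it is the sequence that many of these genes share. RefSeq promoter windows on GRCm38.p6, from 250 bases before to 50 bases after the start, were given for 27 of the 36 genes. The letters GAAANNGAAA, on either strand and with overlapping matches counted, were present in 15 of these 27 genes (55.6%), against 3.99% of all 27018 genes in the table. The GAS letters TTCNNNGAA, which read the same on both strands, were present in 7 of the 27 (25.9%), against 9.55% of all genes. Usp18, Mx1, Mx2, Rtp4, Oas2, Dhx58, Parp9, Parp14 and Zbp1 were not among the 27. The 5 stretches of 100 bases below lie before the start of Isg15 (chr4:156200842-156200941, minus strand), Ifit1 (chr19:34640740-34640839, plus strand), Igtp (chr11:58199456-58199555, plus strand), Oas1a (chr5:120907526-120907625, minus strand) and Irgm1 (chr11:48871421-48871520, minus strand). Isg15, Ifit1 and Igtp stand for genes whose groups overlapped, and Oas1a and Irgm1 for genes whose groups did not. Each reads 5′ to 3′ on the gene's strand, with ISRE matches in capitals.
Isg15: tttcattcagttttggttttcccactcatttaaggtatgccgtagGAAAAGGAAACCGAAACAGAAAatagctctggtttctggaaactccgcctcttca
Ifit1: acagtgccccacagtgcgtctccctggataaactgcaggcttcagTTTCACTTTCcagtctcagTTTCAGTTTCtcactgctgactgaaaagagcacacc
Igtp: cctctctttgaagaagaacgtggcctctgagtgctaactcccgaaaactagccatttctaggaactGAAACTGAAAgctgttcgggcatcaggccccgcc
Oas1a: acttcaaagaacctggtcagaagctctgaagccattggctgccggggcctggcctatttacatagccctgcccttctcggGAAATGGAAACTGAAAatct
Irgm1: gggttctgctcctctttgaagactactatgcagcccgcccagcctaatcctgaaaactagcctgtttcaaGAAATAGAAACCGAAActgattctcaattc
Isg15 held 3 overlapping matches, Ifit1 held 2 separate matches on the opposite strand, and Oas1a and Irgm1 each held 2 overlapping matches. Igtp held 1. Matches stood both in genes whose groups overlapped and in genes whose groups did not. A match is a run of letters and not a measured binding site.

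Of the 30 tested genes, 1 passed, Usp18, which was higher in GFP-positive cells, and none passed as lower. Across all features, 1.82% passed as higher and 0.741% as lower. At an unadjusted p under 0.05, 6 members were higher (Usp18, Irgm1, Mx2, Oas1a, Tlr3 and Ifih1) and 0 were lower, against 7.83% and 15.1% of all features. The 4 GFP-positive arrays all lay above the 4 GFP-negative arrays for 5 members (Usp18, Oas1a, Mx2, Irgm1 and Tlr3) and below them for 0, against 5.07% and 11.6% of all features. The other 25 tested genes overlapped between the groups. Mx2, in both counts, was well above background on 1 GFP-negative and 3 GFP-positive arrays, so it met the filter mainly through the group where it is high. The sign of the difference was positive for 19 genes and negative for 11, with a median of 0.13 against -0.06 over all features, and a range from -0.32 for Cxcl10 to 1.87 for Oas1a. The median of the members was -0.09 without GFP-negative replicate 1, 0.38 without GFP-negative replicate 2, 0.04 without GFP-positive replicate 1, 0.36 without GFP-positive replicate 3 and -0.03 without GFP-positive replicate 4. In a sorted bulk sample, fewer cells expressing a gene and less RNA per cell cannot be told apart.

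**Figure D1:**
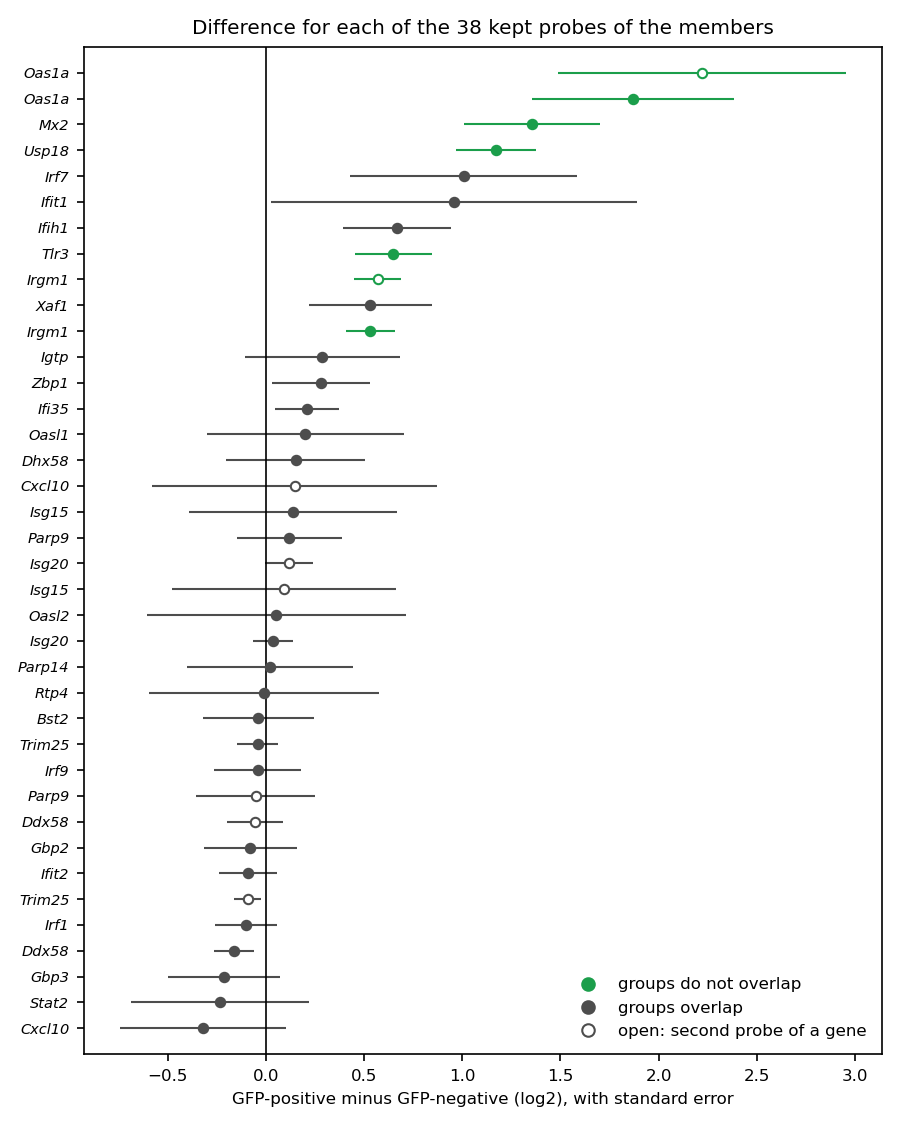
Difference between GFP-positive and GFP-negative cells (horizontal axis, log2) for each kept probe of the tested interferon-stimulated genes, with bars of 1 standard error. Filled points are the probe that stands for the gene, open points a second probe, and green marks probes whose 4 GFP-positive arrays all lay above the 4 GFP-negative arrays. Usp18, Oas1a, Mx2, Irgm1 and Tlr3 are the 5 genes in green, and most other bars cross 0.

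Usp18 removes the ubiquitin-like protein ISG15 from its targets and also restrains signalling at the type I interferon receptor. Its probe lies at chr6:121220874-121220933 on mm9 and was well above background on all 8 arrays. Levels in GFP-negative replicates 1 to 4 were -3.09, -2.55, -2.69 and -3.38, and in GFP-positive replicates 1 to 4 they were -1.52, -1.96, -1.97 and -1.58. Every GFP-positive array was above every GFP-negative array. The means were -1.76 ± 0.24 (SD, n = 4) in GFP-positive and -2.93 ± 0.38 (SD, n = 4) in GFP-negative cells. The difference was 1.17 ± 0.20, or 2.25-fold, with an adjusted p of 0.0295 in limma. In the same fit over the 27575 kept probes, where 1.52% passed as higher, Usp18 had an adjusted p of 0.0326 and was the only member to pass. The adjusted p was above 0.05 without GFP-negative replicate 1 (0.0690), 3 (0.0564) or 4 (0.0624), and without GFP-positive replicate 1 (0.106), 3 (0.0604) or 4 (0.0751). With slide row as a block the adjusted p was 0.0613, and with the replicate number as a block it was 0.121. The difference stayed between 1.02 and 1.30 when single arrays were left out, and was 0.64 with normexp background correction, with an adjusted p of 0.0204.

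Isg15 encodes the ubiquitin-like modifier that Usp18 removes. Its levels were 2.12, 4.13, 3.43 and 3.15 in GFP-negative replicates 1 to 4 and 3.63, 3.24, 2.20 and 4.31 in GFP-positive replicates 1 to 4. GFP-negative replicate 1 and GFP-positive replicate 3 were the lowest, GFP-negative replicate 2 and GFP-positive replicate 4 the highest, and the groups overlapped over nearly their whole ranges. The difference was 0.14 ± 0.53 with an adjusted p of 0.907, and a second Isg15 probe gave 0.09. Trim25, a ubiquitin ligase that acts in the RIG-I pathway, differed by -0.04 ± 0.10, within a range over arrays of 0.33. Of these 3 genes of ISG15 conjugation and feedback, Usp18 was the only one to pass.

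The oligoadenylate synthetases make the short oligoadenylates that activate RNase L. Oas1a levels were -3.25, -2.48, -2.48 and -4.31 in GFP-negative replicates 1 to 4 and -0.61, -2.26, -1.58 and -0.60 in GFP-positive replicates 1 to 4. The groups did not overlap, although GFP-positive replicate 2 lay close to GFP-negative replicates 2 and 3. The difference of 1.87 ± 0.52 (3.65-fold) was the greatest of the 30 genes and did not pass, with an adjusted p of 0.0913. With normexp it was 1.12, with an adjusted p of 0.0488. A second Oas1a probe, at chr5:121348338-121348397 on mm9, was well above background on 1 of 4 GFP-negative and 4 of 4 GFP-positive arrays. It thus met the filter through the group where it is high, and its difference and lack of overlap are no separate support. Its levels were -4.71, -4.33, -4.68 and -6.35 in the GFP-negative replicates and -3.21, -0.72, -3.96 and -3.29 in the GFP-positive replicates. GFP-positive replicate 2 was thus the highest array on this probe and the lowest GFP-positive array on the other, and the groups did not overlap on either. The second probe differed by 2.22 ± 0.73, with an adjusted p of 0.139 over all probes. The mouse genome holds near copies of Oas1a, and cross-hybridisation between them was not analysed here.

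**Figure D2:**
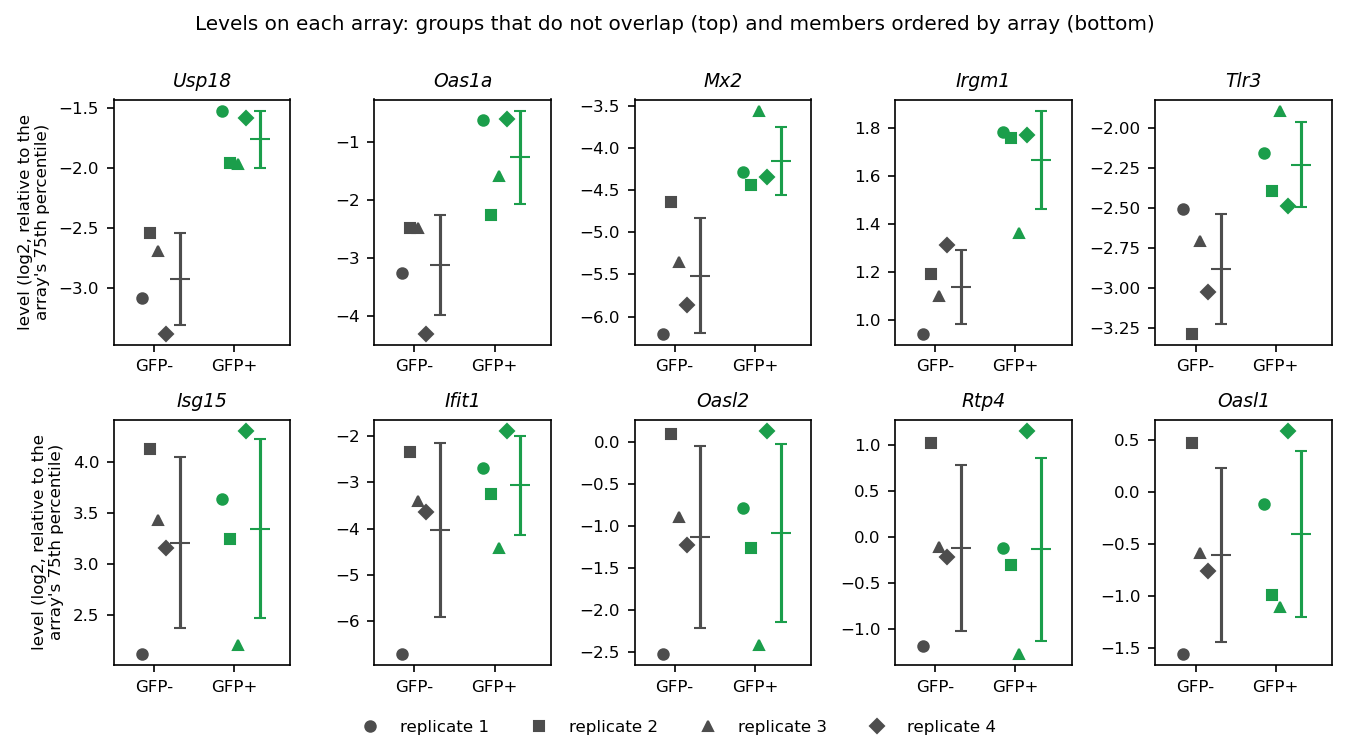
Level on each array (vertical axis, log2 relative to the array's 75th percentile) for 10 interferon-stimulated genes, with a marker shape for each replicate number and bars for the mean ± SD of 4 arrays. In the top row (Usp18, Oas1a, Mx2, Irgm1, Tlr3) the groups do not overlap, and in the bottom row (Isg15, Ifit1, Oasl2, Rtp4, Oasl1) they do, with GFP-negative replicate 1 and GFP-positive replicate 3 lowest in their groups.

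The 2 related genes Oasl1 and Oasl2, which encode oligoadenylate synthetase-like proteins, overlapped between the groups. Oasl2 levels were -2.53, 0.10, -0.89 and -1.23 in GFP-negative replicates 1 to 4 and -0.79, -1.27, -2.42 and 0.14 in GFP-positive replicates 1 to 4. Oasl1 levels were -1.55, 0.48, -0.59 and -0.76 in the GFP-negative and -0.11, -0.98, -1.11 and 0.59 in the GFP-positive replicates. Both genes were lowest in GFP-negative replicate 1 and GFP-positive replicate 3 within each group, and highest in GFP-negative replicate 2 and GFP-positive replicate 4. The differences were 0.05 ± 0.66 for Oasl2 and 0.20 ± 0.50 for Oasl1, with adjusted p of 0.971 and 0.849 in limma. Oas2 and Oas3, the larger synthetases, were not well above background on any array and were not tested.

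Ifit1, which binds viral RNA lacking the host cap methylation, had the widest range of all members, 4.81 over the 8 arrays. Its levels were -6.70, -2.35, -3.42 and -3.65 in GFP-negative replicates 1 to 4 and -2.70, -3.25, -4.43 and -1.90 in GFP-positive replicates 1 to 4. GFP-negative replicate 1, the lowest, was the 1 array on which the probe was not well above background. The groups overlapped, and the difference of 0.96 ± 0.93 had an adjusted p of 0.579. It was 0.07 without GFP-negative replicate 1, 1.52 without GFP-negative replicate 2, 0.57 without GFP-positive replicate 4 and 0.25 with normexp. Ifit2, of the same family, differed by -0.09 ± 0.15, and Isg20, an RNA exonuclease, by 0.04 ± 0.10. Ifit3 was well above background on 2 GFP-negative and 0 GFP-positive arrays and was not tested. In this group of RNA-acting effectors, 6 of 9 genes were tested and 0 passed.

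Mx2 encodes a dynamin-like antiviral GTPase. Its levels were -6.20, -4.64, -5.35 and -5.87 in GFP-negative replicates 1 to 4 and -4.29, -4.44, -3.56 and -4.34 in GFP-positive replicates 1 to 4. The groups did not overlap, but the probe was well above background on only 1 GFP-negative and 3 GFP-positive arrays. The difference of 1.36 ± 0.35 (2.56-fold) had an adjusted p of 0.0770, and rests in the GFP-negative group on 3 of 4 arrays that were not well above background. With normexp it was 0.24, with an adjusted p of 0.111. Without GFP-negative replicate 2 the adjusted p was 0.0490, and without each other array in turn it lay between 0.0932 and 0.195. Mx1 was not well above background on any array.

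Irgm1, an immunity-related GTPase that acts on membranes and autophagy, is given with its levels because its groups did not overlap, a choice made after its values were seen. Levels were 0.95, 1.19, 1.10 and 1.31 in GFP-negative replicates 1 to 4 and 1.78, 1.76, 1.36 and 1.77 in GFP-positive replicates 1 to 4. GFP-positive replicate 3 lay next to the highest GFP-negative array, apart from the other 3. The difference was 0.53 ± 0.12, with an adjusted p of 0.0650, and 0.63 without GFP-positive replicate 3, with an adjusted p of 0.0386. A second Irgm1 probe also showed no overlap, with a difference of 0.57 ± 0.12 and an adjusted p of 0.0571 over all probes. Igtp, another immunity-related GTPase, differed by 0.29 ± 0.40. The guanylate-binding proteins Gbp2 and Gbp3 differed by -0.08 ± 0.24 and -0.21 ± 0.28. All 3 overlapped between the groups.

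Among the sensors, Tlr3 detects double-stranded RNA in endosomes, and Ifih1 (MDA5), Ddx58 (RIG-I) and Dhx58 (LGP2) act on RNA in the cytosol. Tlr3, also singled out after its values were seen, had levels of -2.51, -3.28, -2.71 and -3.02 in GFP-negative replicates 1 to 4 and -2.15, -2.39, -1.89 and -2.48 in GFP-positive replicates 1 to 4. The groups did not overlap, but GFP-positive replicate 4 and GFP-negative replicate 1 were nearly level. The difference of 0.65 ± 0.20 had an adjusted p of 0.109, and was 0.34 with normexp. Ifih1 levels were -2.80, -1.63, -2.28 and -2.37 in the GFP-negative and -1.44, -1.99, -1.84 and -1.13 in the GFP-positive replicates. GFP-negative replicate 2 lay among the GFP-positive arrays, and the difference of 0.67 ± 0.28 had an adjusted p of 0.202. Ddx58 differed by -0.16 ± 0.10, Dhx58 by 0.15 ± 0.36, and Zbp1, a sensor of left-handed (Z-form) nucleic acid, by 0.28 ± 0.25. Of the 5 sensors 0 passed.

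The transcription factors of the response did not pass either. Irf7, which amplifies type I interferon production, had levels of -6.81, -3.82, -4.88 and -4.47 in GFP-negative replicates 1 to 4 and -4.09, -4.21, -4.17 and -3.47 in GFP-positive replicates 1 to 4. The probe was well above background on 2 of 4 GFP-negative and 4 of 4 GFP-positive arrays, and GFP-negative replicate 2 lay within the GFP-positive range. The difference of 1.01 ± 0.58 had an adjusted p of 0.337 in limma. It was 0.40 without GFP-negative replicate 1 and 0.21 with normexp. Stat2 and Irf9, subunits of the complex that binds the ISRE, differed by -0.23 ± 0.45 and -0.04 ± 0.22, and Irf1 by -0.10 ± 0.16. These 3 genes were bright enough to be well above background on all 8 arrays.

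Of the remaining effectors 0 passed. Xaf1, a protein linked to apoptosis, had levels of -1.44, -0.20, -0.87 and -0.98 in GFP-negative replicates 1 to 4 and -0.23, -0.47, -0.93 and 0.26 in GFP-positive replicates 1 to 4. The groups overlapped and the difference of 0.53 ± 0.31 had an adjusted p of 0.347. Rtp4, a receptor transporter protein, had levels of -1.19, 1.02, -0.11 and -0.21 in the GFP-negative and -0.12, -0.30, -1.27 and 1.15 in the GFP-positive replicates. Its 2 groups had nearly the same mean, with a difference of -0.01 ± 0.59, while the arrays within each group spread over more than 2 log2 units. Ifi35 differed by 0.21 ± 0.16. Bst2 (tetherin), which holds budding virus at the membrane, differed by -0.04 ± 0.28. Parp9 and Parp14, of the ADP-ribosyltransferase family, differed by 0.12 ± 0.27 and 0.02 ± 0.42. Rsad2 (viperin) was well above background on 1 GFP-negative and 2 GFP-positive arrays and Ifi44 on 0, so neither was tested.

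Cxcl10, a chemokine that attracts T cells, had the most negative difference of the members. Its levels were 1.13, 2.28, 2.29 and 2.25 in GFP-negative replicates 1 to 4 and 2.21, 1.82, 0.53 and 2.13 in GFP-positive replicates 1 to 4. GFP-positive replicate 3 and GFP-negative replicate 1 lay below all other arrays. The difference was -0.32 ± 0.42, with an adjusted p of 0.694, and 0.06 without GFP-positive replicate 3. A dimmer second Cxcl10 probe gave 0.15.

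The members varied more between arrays of 1 group than most features did. Their median range over the 8 arrays was 1.56 log2 units, against 0.59 for all features, and 22 of 30 had a range above 1, against 5061 of 19702 features. The median SD within the GFP-negative group was 0.48, against 0.17 for all features, and within the GFP-positive group it was 0.40, against 0.17. Most members also ordered the arrays alike, as was seen after the values had been examined. GFP-negative replicate 1 was the lowest GFP-negative array for 21 of 30 genes (70.0%), against 26.0% of all features, and replicate 2 the highest for 22 (73.3%), against 20.9%. GFP-positive replicate 3 was the lowest GFP-positive array for 21 (70.0%), against 35.4% of all features, and replicate 4 the highest for 22, against 26.5%. All 4 positions held for 15 of 30 genes (50%), against 6.32% of all features. These were Dhx58, Gbp2, Gbp3, Ifi35, Ifit1, Igtp, Irf1, Irf9, Isg15, Oasl1, Oasl2, Parp14, Parp9, Rtp4 and Xaf1, and none of the 5 genes without overlap is among them.

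**Figure D3:**
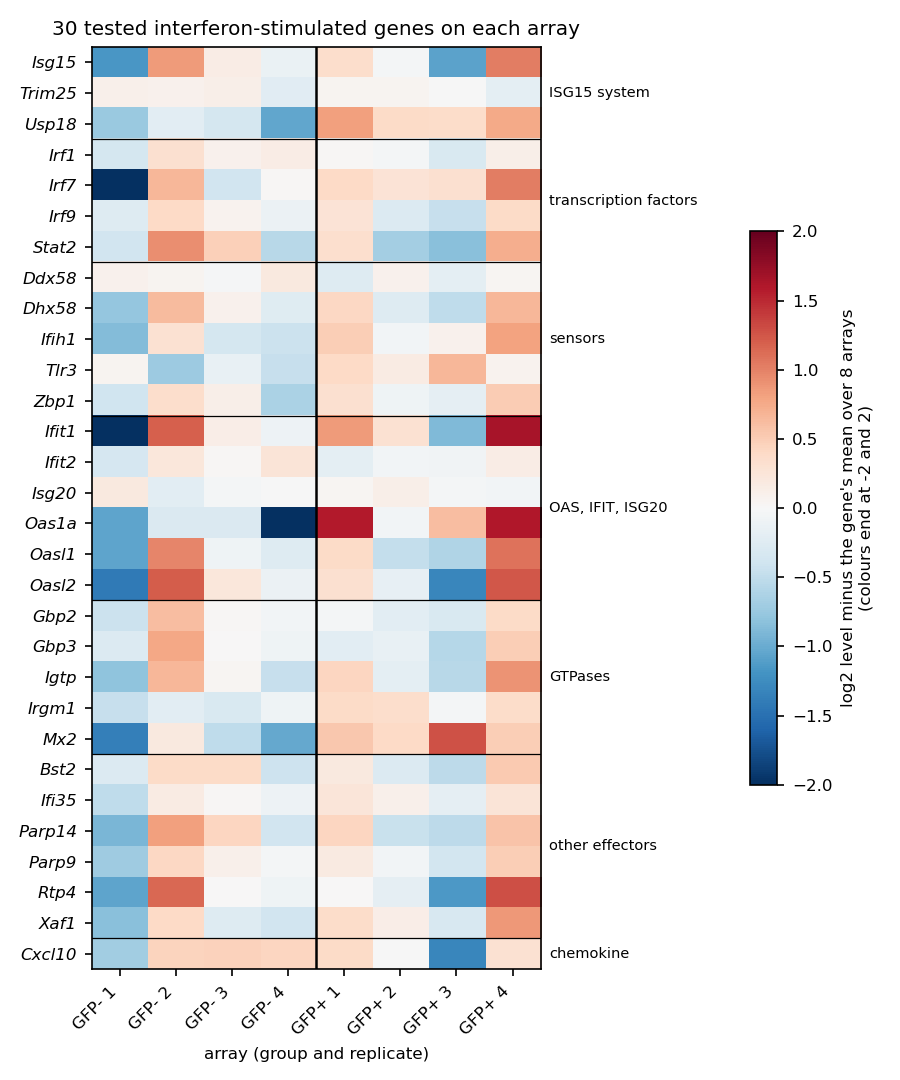
Level of the 30 tested interferon-stimulated genes (rows) on the 8 arrays (columns), each gene centred on its mean over the arrays (log2, colours capped at -2 and 2). GFP-negative replicate 1 and GFP-positive replicate 3 are low, and GFP-negative replicate 2 and GFP-positive replicate 4 high, in most rows, while Usp18, Oas1a, Mx2, Irgm1 and Tlr3 separate the groups.

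With each gene centred on its mean over the arrays, the median member level was -0.71, 0.40, 0.02 and -0.12 in GFP-negative replicates 1 to 4. In GFP-positive replicates 1 to 4 it was 0.35, -0.05, -0.31 and 0.52. Both groups thus held arrays with high and arrays with low member levels, while the same median over all features stayed between -0.04 and 0.05. The 5 genes without overlap, chosen for that, had medians from -1.03 to -0.21 on the GFP-negative and from 0.35 to 0.62 on the GFP-positive arrays. For the other 25 genes the lowest medians were -0.70 in GFP-negative replicate 1 and -0.45 in GFP-positive replicate 3, and the highest were 0.45 in GFP-negative replicate 2 and 0.53 in GFP-positive replicate 4. A list of 48 further interferon-stimulated genes, of which 37 were tested, held all 4 positions in 10 genes (27.0%).

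**Figure D4:**
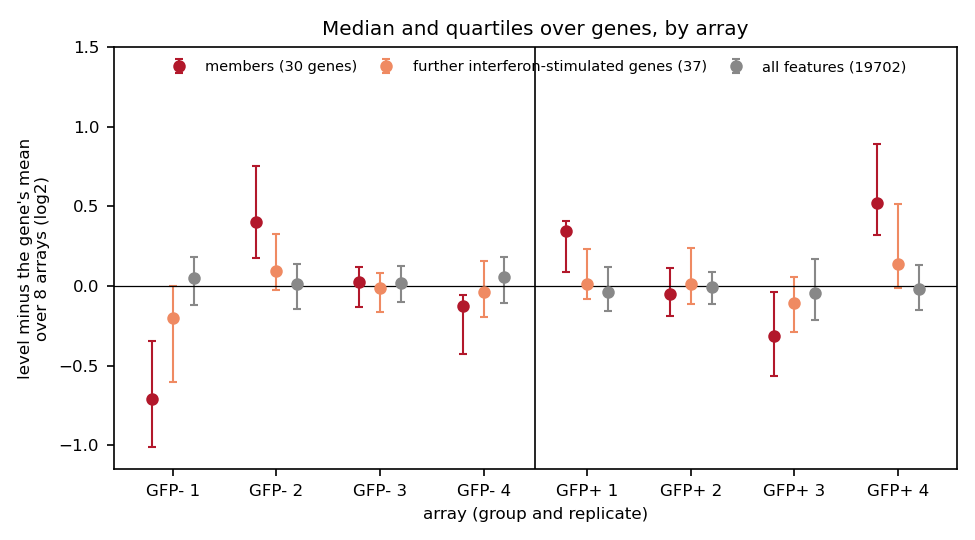
Median level per array after centring each gene (vertical axis, log2), with bars for the quartiles, for the 30 members, 37 further interferon-stimulated genes and all 19702 features. GFP-negative replicate 1 is lowest at -0.71 and GFP-positive replicate 4 highest at 0.52 for the members, and all features stay near 0.

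Markers of other cell types were compared over the same arrays. The 6 detected of 7 fibroblast markers (Col1a1, Col1a2, Col3a1, Pdgfra, Pdgfrb and Dcn) had centred medians of -1.23, 2.01, 1.19 and 1.60 in GFP-negative replicates 1 to 4 and -1.09, -0.02, -2.95 and 0.73 in GFP-positive replicates 1 to 4. Their medians were thus lowest in GFP-negative replicate 1 and GFP-positive replicate 3 and highest in GFP-negative replicate 2 and GFP-positive replicate 4 within each group. The medians of the members had the same extremes, but other arrays differed. GFP-negative replicate 4 was at 1.60 for these markers and -0.12 for the members, and GFP-positive replicate 1 at -1.09 and 0.35. The summed signal of the fibroblast markers ranged from 14.1 to 171 times the 75th percentile in GFP-negative and from 3.75 to 60.3 times in GFP-positive arrays. Lum was not above background on any array. The part of the fibroblast markers in the order of the arrays was not tested. The 8 epithelial markers, among them Epcam, Krt8 and Krt18, were well above background on all 8 arrays. Their centred medians were 0.17, -0.66, 0.14 and -0.70 in GFP-negative replicates 1 to 4 and 0.44, 0.14, 0.53 and -0.17 in GFP-positive replicates 1 to 4, lowest within the GFP-positive group where the members were highest. Between the groups, the median difference was 0.53 for the epithelial markers, all 8 positive, and -1.78 for the fibroblast markers, all 6 negative, and 0 of either list passed. Their part in the differences of the members was not tested. Of 12 leukocyte markers, 6 were above background on all arrays, whereas Ptprc (CD45) was so on 1 array and Itgax on 0. The summed signal of the 6 tested leukocyte markers was 117 to 129 in GFP-negative and 105 to 150 in GFP-positive arrays. Most of this sum came from Siglech, so it says little about the other markers. Csf1r was lowest in GFP-negative replicate 1 (2.46) and GFP-positive replicate 3 (2.34) within each group. Of the 6 markers, 2 were lowest in GFP-negative replicate 1 and 4 in GFP-positive replicate 3 within their groups. Of 5 endothelial markers, 3 were not above background on any array. The summed signal of the 2 tested, nearly all from Kdr, was 6.37 to 8.05 in GFP-negative and 6.33 to 7.93 in GFP-positive arrays.

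All arrays lay on 1 slide. By the position codes in the file headers, slide row 1 held GFP-positive replicates 1 and 3 with GFP-negative replicates 2 and 4, and row 2 held the other 4 arrays. Within each group, slide row, odd or even replicate number and any experiment behind it therefore cannot be told apart. The median member difference was -0.24 in row 1 and 0.47 in row 2, against -0.06 and -0.05 for all features. Usp18 differed by 1.22 in row 1 and 1.12 in row 2, Oas1a by 2.30 and 1.44, Mx2 by 1.33 and 1.38, and Irgm1 by 0.32 and 0.74. The groups of these 4 genes did not overlap, so a higher level in GFP-positive cells in both rows was fixed in advance, as for Tlr3. Tlr3 differed by 1.13 in row 1 and 0.17 in row 2, and the difference between the rows was -0.96 ± 0.21, with an adjusted p of 0.0910 in limma. Ifit1 differed by -0.57 and 2.49, Isg15 by -0.73 and 1.00, Oasl2 by -1.04 and 1.14 and Rtp4 by -1.10 and 1.08. For these 4 genes the sign turned between the rows. By this layout, the difference between the rows is also the contrast of even against odd replicate numbers over both groups. A GFP difference that depends on the row and a shift shared by even replicates of both groups therefore cannot be told apart. In the test of the difference between rows, 0 of 30 members passed, against 1.2% of all features, and 3 had an unadjusted p under 0.05 (Tlr3, Ddx58 and Ifit2), against 19.3%. The fibroblast markers differed by a median of -3.63 in row 1 and 0.41 in row 2, and the epithelial markers by 1.19 and -0.17. In the same test between rows, 1 of 6 fibroblast and 3 of 8 epithelial markers passed, against 1.2% of all features. At an unadjusted p under 0.05 there were 5 fibroblast and 8 epithelial markers, against 19.3%.

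**Figure D5:**
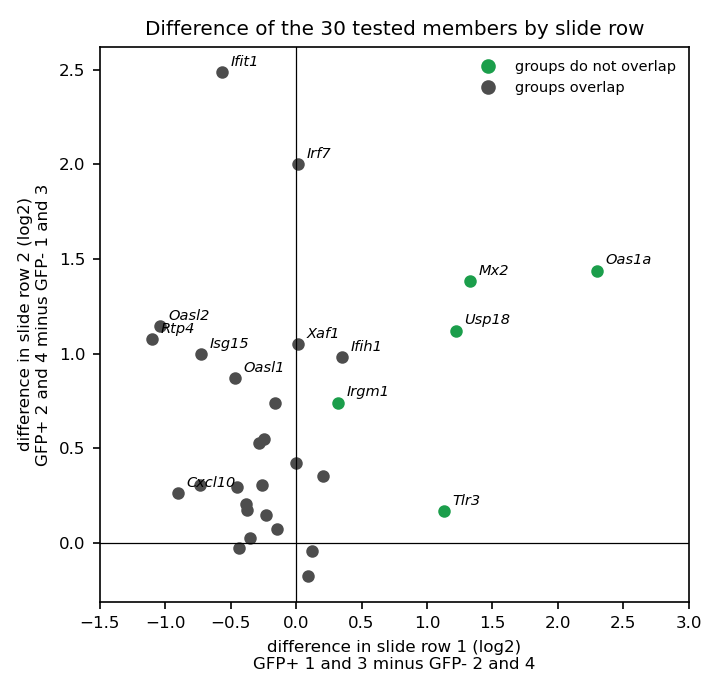
Difference between GFP-positive and GFP-negative cells in slide row 1 (horizontal axis, log2) against that in slide row 2 (vertical axis, log2), 1 point for each of the 30 tested members, from 2 against 2 arrays in each row. Usp18, Mx2, Oas1a and Irgm1 are above 0 in both rows, which the lack of overlap between their groups fixes in advance. Ifit1, Oasl2, Rtp4 and Isg15 lie below 0 in row 1 and above 0 in row 2.

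The genes upstream of the members came from lists of the pathway. Of 19 interferon genes, 16 were on the array and 8 were tested. Of these 8, 0 passed, against 1.82% of all features as higher and 0.741% as lower. An unadjusted p under 0.05 was reached by 0, against 7.83% and 15.1%. Ifna1, Ifna2, Ifna5, Ifna12 and Ifnab, among the 8, were well above background on at most 5 to 7 arrays. Ifnb1 and Ifng, the genes of interferon beta and gamma, were not well above background on any array. Of 15 receptor and JAK-STAT genes 0 passed, while 3 were higher and 2 were lower before adjustment (p under 0.05), against 7.83% and 15.1% of all features. The receptor chains differed by 0.04 ± 0.09 for Ifnar1, -0.25 ± 0.19 for Ifnar2, -0.14 ± 0.10 for Ifngr1 and -0.15 ± 0.09 for Ifngr2. Ifnlr1, a chain of the interferon lambda receptor, had the greatest difference of the list, 0.91 ± 0.29, with an adjusted p of 0.123. The kinases differed by -0.31 ± 0.13 for Jak1 and 0.40 ± 0.13 for Tyk2, with adjusted p of 0.195 and 0.132 in limma. Jak2, a kinase of the interferon gamma receptor, differed by 0.39 ± 0.08 with no overlap between the groups and an adjusted p of 0.0514. It was the 1 gene of the list higher without overlap, and Ptpn2 and Pias1 were the 2 lower, against 5.07% and 11.6% of all features. Ptpn2 differed by -0.34 ± 0.08, with an adjusted p of 0.0684 in limma, and Pias1 by -0.10 ± 0.06. Ifnlr1, Jak2, Ptpn2 and Pias1 were singled out after their values were seen. Of 14 genes of the pathway that induces interferon, such as Mavs and Tbk1, 0 passed and 2 were higher before adjustment (p under 0.05), against 7.83% of all features.

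Of the 37 further interferon-stimulated genes tested, 1 rose and 0 fell past the threshold, against 1.82% and 0.741% of all features. Before adjustment (p under 0.05), 5 were higher, against 7.83%. The 1 that rose was Gbp4, a guanylate-binding protein. Its levels were -3.21, -3.37, -2.97 and -3.32 in GFP-negative replicates 1 to 4 and -2.28, -2.31, -2.49 and -2.57 in GFP-positive replicates 1 to 4. The groups did not overlap, and the difference was 0.81 ± 0.11 with an adjusted p of 0.0124. Usp18 and Gbp4 were thus the genes that passed among the 30 members and the 37 further genes.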

How the data were processed

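Each deposited file held the scanner intensity of 1 Cy3-labelled array. Agilent Feature Extraction is named in the submitters' processing notes, and per the file headers its version was 10.7.3.1, with probe positions on mm9. The deposited intensity used was the processed signal, already background-corrected by that program. What the authors did after extraction is not stated in any source used here. Spots marked as outliers were left out (106 to 186 per array), log2 signals were set relative to each array's 75th percentile, spots of 1 probe were averaged, and probes that stood well above background on 4 or more of 8 arrays were kept (27575), with the brightest kept probe standing for a gene. Per array, 45.1% to 57.4% of 55681 probes were well above background and none was saturated. The number of arrays limits the precision. Correlations between arrays ran from 0.977 to 0.995.

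Differences were tested by lmFit and eBayes of limma 3.58.1 (two-sided, no replicate block) in R 4.3.3 with data.table (version 1.17.8), and p-values were adjusted by Benjamini-Hochberg over all 19702 features, of which 359 passed as higher and 146 as lower. With quantile normalization these counts were 337 and 82, and with normexp 425 and 363. Tested on simulated data for this comparison over 19702 features, the fit recovered 36% of 50 changes of 0.5 log2, 64% of 1, 88% of 2 and 98% of 3, with 8 false calls. Those changes were put in features drawn at random, with noise independent between features. Median SDs of the members were 0.48 in the GFP-negative and 0.40 in the GFP-positive group, against 0.17 over all features. The recovery rates are therefore not those of the members.

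The members and lists were chosen with earlier results of these data known. Values on every array are given for members that passed, the 8 with the widest range, the member with the greatest absolute difference in each role group, and Gbp4 of the other lists. Not every gene that the rule names is reported here. Irgm1 and Tlr3 were added after their values were seen. Alternatives varied the background correction, scaling, filter, probe rule, variance model, blocks and arrays used.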

Additional observations from a re-analysis of the deposited data

Results flagged for a closer look

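In 5 of the 60 groups of 4 arrays tested (30 genes in both groups), 1 array stood apart by Dixon's test. About 1 group in 20 would be marked by chance. Irgm1 in GFP-positive replicate 3, at 1.36, was below the other GFP-positive arrays, which lay between 1.76 and 1.78. Mx2 in the same array, at -3.56, was above the other GFP-positive arrays, the nearest of which was at -4.29. Irf7 in GFP-positive replicate 4, at -3.47, was above the nearest array at -4.09. Cxcl10 in GFP-negative replicate 1, at 1.13, was below the other GFP-negative arrays, between 2.25 and 2.29. Trim25 in GFP-negative replicate 4, at 5.72, was below the others, between 6.03 and 6.05.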

How the results depend on the processing

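The number of members that passed, 1 as reported, was 3 with normexp background correction, 0 with no filter on dim probes, 2 with an intensity trend and robust prior, 5 with array weights, 0 with slide row as a block, 0 within slide row 2, and 0 to 2 when single arrays were left out. Within slide row 1 it was again 1, Tlr3 in place of Usp18. Over all features the count, 505 as reported, was 788, 154, 1166, 1823, 278 and 0 under the same 6 alternatives, 1048 within slide row 1, and 151 to 428 without single arrays, where 428 (without GFP-positive replicate 2) was the closest to 505 and 151 (without GFP-positive replicate 1) the farthest. Within slide row 2, limma gave 1130 higher and 1015 lower features at an unadjusted p under 0.05. With the replicate number as a replicate block, 0 members and 215 features passed, and Usp18 had an adjusted p of 0.121. The labels do not say whether same-numbered arrays came from the same sort, and the main fit does not pair them. Same-numbered arrays deviated together with correlations of only -0.03 to 0.18, which does not settle whether they are pairs. No array correlated best with its own number. GFP-negative replicates 1 to 4 correlated best with GFP-positive replicates 3, 4, 1 and 2, at 0.60, 0.65, 0.43 and 0.34. These matches were seen in the data, no label ties the arrays, and no fit with them as pairs was run. Over all 20 alternatives Usp18 passed in 9, with a difference from 0.64 to 1.30 and an adjusted p from 0.0142 to 0.379. Features whose difference differed between rows numbered 236, and 782 with normexp. The sign of the difference was the same in every alternative for 9 of 30 members and turned in some for 21. The median member difference ran from -0.24 within slide row 1 to 0.47 within slide row 2. All arrays had 1 scan date, so a block for it was not run. Signal over background limits Mx2, Irf7 and Ifit1, and left 6 members untested.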
